A study of Caenorhabditis elegans with 21 samples.

Results

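OMA-1 is an RNA-binding protein of *C. elegans* oocytes. The data below compare the mRNAs recovered with wild type OMA-1::GFP with the mRNAs in total RNA of the same strain. The comparison rests on 4 of the 21 samples of the series, 2 RIP libraries and 2 input libraries of the *oma-1-gfp* strain, chosen by their labels. In RIP-seq (RNA immunoprecipitation and sequencing) a protein is purified with the RNA bound to it, and that RNA is sequenced. Here the study used GFP-Trap beads on lysates of whole young adults grown at 25 °C, with about 100000 animals per sample, and the input is total RNA of the same strain. The *oma-1-gfp* strain carries GFP knocked in at *oma-1* and is otherwise wild type at *oma-1* and *fzy-1*. It is set beside *oma-1ts-gfp*, which carries the P240L change of OMA-1 with the same tag, and *fzy-1;oma-1ts-gfp*, which carries in addition the D433N change of FZY-1, an activator of the anaphase promoting complex (APC/C). All these strains carry the GFP tag and keep *oma-2*, and no untagged strain was analysed here, so RNA that sticks to beads or to GFP was not measured.

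OMA-1 and its close relative OMA-2 are proteins with a pair of CCCH zinc fingers. They act redundantly in oocyte maturation, and they bind 3′UTRs of maternal mRNAs and keep these mRNAs from being translated until the embryo divides. Known targets include *zif-1*, which encodes the substrate-binding subunit of a cullin ubiquitin ligase that removes germ cell proteins from somatic blastomeres, *mom-2*, which encodes a Wnt ligand, and *nos-2*, which encodes a Nanos protein. OMA-1 is present in oocytes and is degraded in the early embryo, whereas the input of a whole animal also holds RNA of the intestine, muscle, epidermis and somatic gonad. The purification therefore asks which of these mRNAs were recovered with OMA-1 beyond their share of the total.

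The authors deposited RPKM values (read numbers divided by the length of the gene and the depth of the library), and 17198 genes had a value in at least 1 of the 4 libraries. RIP 1 and RIP 2 list 13897 and 14394 genes, and input 1 and input 2 list 15419 and 15636. The RPKM files of single samples, which were used here, give no read counts. The steps between low values put 1 read on a gene of 1 kb at 0.119 and 0.071 RPKM in RIP 1 and RIP 2 and at 0.059 RPKM in each input, so the RIP libraries are the shallower ones. Spearman's rho across the genes tested was 0.951 between the RIP libraries and 0.982 between the inputs, and the RIP libraries also spread more. The oocyte markers *oma-1*, *oma-2*, *puf-5* and *cpg-2* were present in all 4 libraries, at 66.8 to 1273 RPKM. The 10 most abundant genes took 6.73% and 8.50% of all RPKM in RIP 1 and RIP 2, and 4.87% and 4.12% in the inputs.

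Genes were tested when 2 or more of the 4 libraries held 1 RPKM or more, which 9743 did. Of these, 889 (9.12%) were higher in RIP and 1888 (19.4%) were lower, by a change over 1 on the log2 scale with a p below 0.05 after Benjamini-Hochberg adjustment (limma on log2(RPKM + 1)). These genes are called enriched and depleted below. RIP and input values of these genes did not overlap, which passing both thresholds largely brings about, so it is no further support. The share without overlap over all genes tested is not given here. Of the 1888 depleted genes, 1540 held at least 1 RPKM in both RIP libraries. Genes under 1 RPKM in both libraries of 1 group passed the filter through the other group alone, which fixes a difference. Their calls are no support, though the counts include them. Counts in gene lists are to be read beside 9.12% and 19.4%. The 889 enriched genes held 30.9% and 37.5% of the summed RPKM in RIP 1 and RIP 2, and 6.84% and 6.75% in input 1 and input 2. The 1888 depleted genes held 14.5% and 12.2% in the RIP libraries, and 41.9% and 41.5% in the inputs. The change exceeded 3 on the log2 scale for 76 enriched and 59 depleted genes. No source says whether replicates were separate cultures, so the p-values measure the spread between these samples.

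Over all genes tested the log2 fold change had a median of −0.37, against which the values given below are to be read. When each library was centred on its median, the gene median lay at −0.07, with 1373 genes enriched and 959 depleted. After quantile normalization it lay at −0.11, with 1270 enriched and 1065 depleted. The enriched share of all calls was thus 32.0% with the deposited values, 58.9% with centring and 54.4% with quantile normalization. All 889 enriched genes were enriched under both scalings, and 954 of the 1888 depleted genes were depleted under both. Centring raised every log2 fold change by the same amount, and quantile normalization raised the gene median too. Survival of the enriched calls was therefore largely fixed in advance and is no support for them. With 1 library left out, the spread came from the pair of the other group alone. The median SD of a gene was 0.28 between the RIP libraries and 0.14 between the inputs. Calls that ended or arose in such fits therefore depend on which pair sets the spread, beside the library left out. A gene that passed the filter through 1 group alone was untested when a library of that group was left out.

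**Figure D1:**
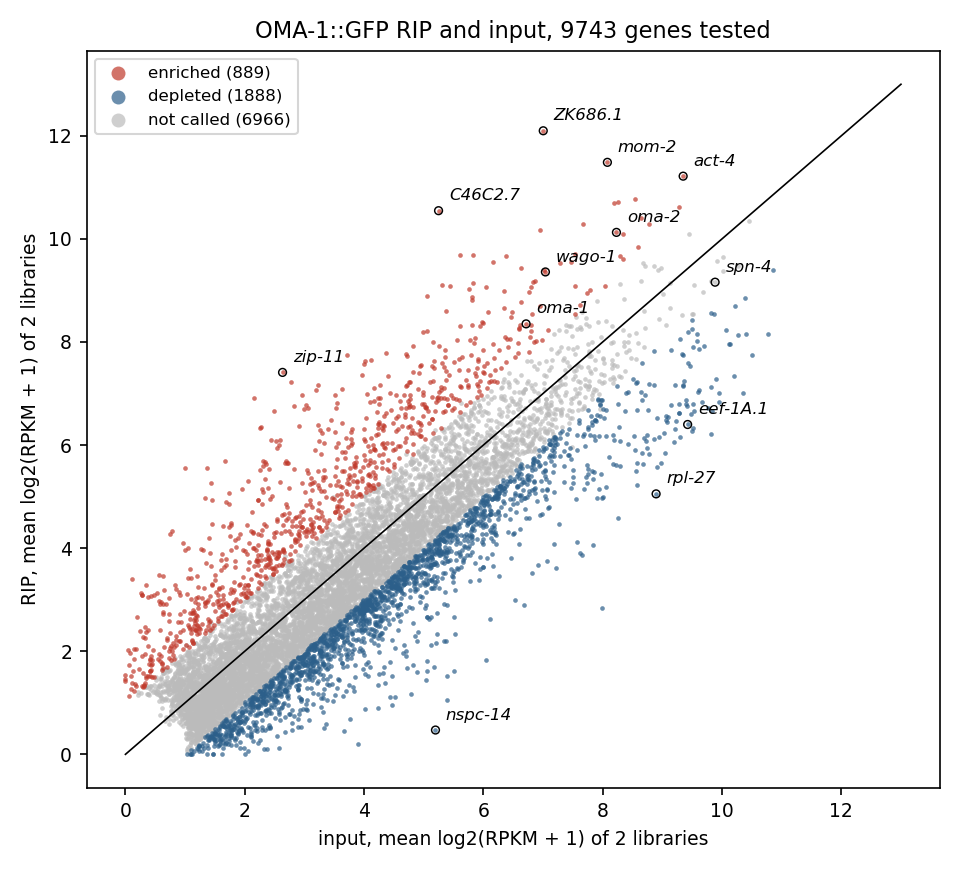
Each point is 1 of the 9743 genes tested, with its mean log2(RPKM + 1) in 2 input libraries on the x axis and in 2 RIP libraries on the y axis. The line marks equal values, and 12 genes are named. The 889 enriched genes spread over the whole range of input levels, while at the highest input levels most points lie below the line.

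The most enriched mRNAs were of little studied genes. *C46C2.7* (WBGene00045078, chromosome IV, 9194824 to 9196076) had 1024 and 2184 RPKM in RIP, against 36.4 and 37.7 RPKM in input, a log2 fold change of 5.30 (SE 0.39). *ZK686.1* (WBGene00022791, chromosome III, 7773134 to 7773857) had 4253 and 4514 RPKM in RIP, against 129 and 126 RPKM in input, a log2 fold change of 5.09 (SE 0.35). RIP and input values of both genes lie far apart, and in *C46C2.7* RIP 2 was also well above RIP 1. Coordinates are those of the WBcel235 annotation, matched by gene identifier, since the build of the alignment is not given in the sources used here.

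*zip-11*, which encodes a bZIP transcription factor, had 185 and 155 RPKM in RIP, against 5.5 and 4.92 RPKM in input. *sru-35*, a member of a chemoreceptor family, had 49.8 and 42.3 RPKM in RIP, against 0.896 and 1.12 RPKM in input. *dpy-10*, which encodes a cuticle collagen, had 124.6 and 178 RPKM in RIP, against 5.19 and 6.62 RPKM in input. These genes were low in input and reached intermediate to high levels in RIP, with log2 fold changes of 4.78, 4.55 and 4.45. Exons of *dpy-10* overlap those of another annotated gene over 49.0% of their length, and whether the counting used strand is not given in the sources used here.

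*M176.11* had 95.1 and 150.5 RPKM in RIP, against 3.39 and 3.54 RPKM in input. *Y52E8A.2* had 736 and 925 RPKM in RIP, against 50.4 and 44.8 RPKM in input. The other genes among the 10 most enriched were *B0403.5*, *F32D1.11* and *T10C6.10*, with log2 fold changes of 4.18, 4.18 and 4.07, and between 44.2 and 113 RPKM in each RIP library. All 10 had an adjusted p of 9.4e-05 (limma) and stayed enriched in all 15 settings tried.

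Among the 10 most depleted mRNAs of genes with a symbol and at least 10 RPKM in each input, 5 were of *nspc* genes and 3 of ribosomal protein genes. *nspc-14*, of a nematode-specific peptide family, had 0.282 and 0.499 RPKM in RIP, against 37.9 and 33.6 RPKM in input, a log2 fold change of −4.73 (SE 0.27). *nspc-20*, *nspc-10*, *nspc-9* and *nspc-3* followed the same pattern, with log2 fold changes between −4.33 and −3.69 and at most 2.34 RPKM in any RIP library. *nspc-14* and *nspc-3* passed the filter through the inputs alone. A difference was fixed by the filter there, and these calls are no support for depletion. *rpl-27*, which encodes a protein of the large ribosomal subunit, had 33.3 and 31.2 RPKM in RIP, against 507 and 445 RPKM in input, a log2 fold change of −3.84 (SE 0.28). *rps-8* and *rpl-9*, likewise ribosomal protein genes, had log2 fold changes of −3.77 and −3.68. *ule-5* had 6.06 and 6.93 RPKM in RIP, against 103 and 101 RPKM in input, and *ZK813.3* had 13 and 15.2 RPKM in RIP, against 208 and 184 RPKM in input. These 10 genes were chosen among genes without overlap of RIP and input values.

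**Figure D2:**
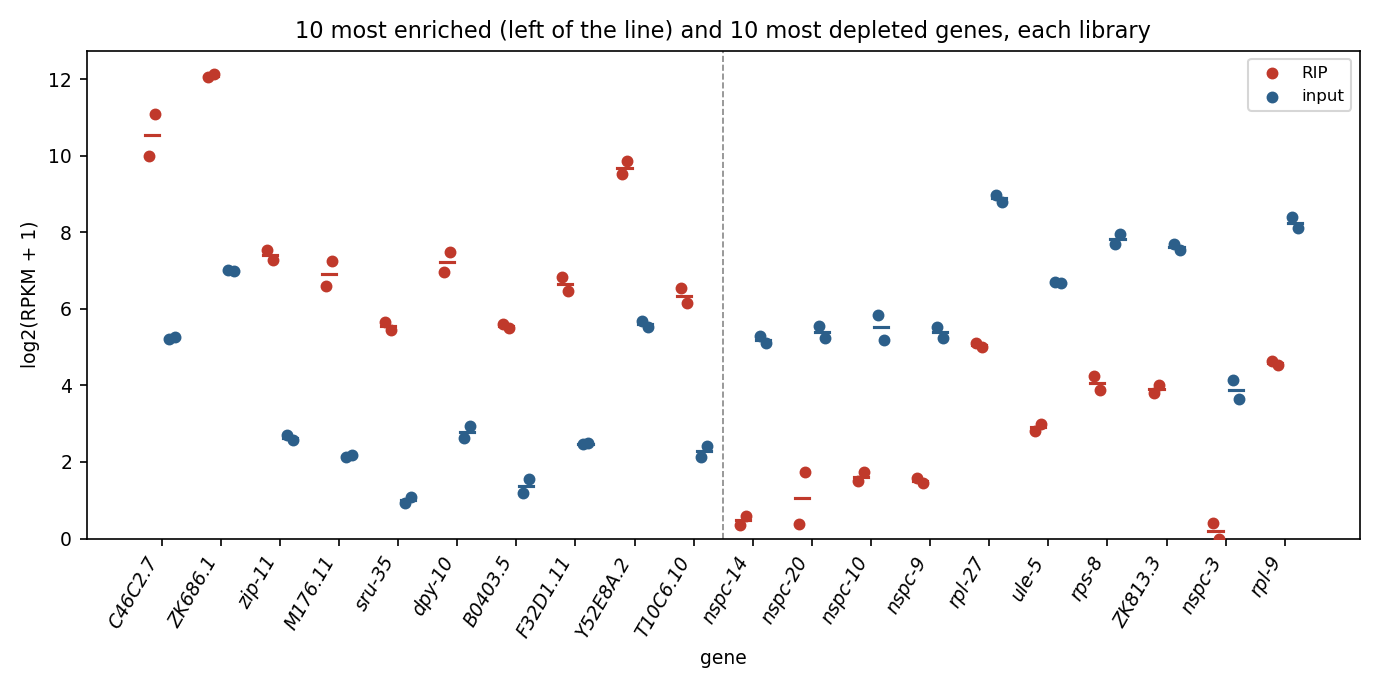
Points give log2(RPKM + 1) of each library for the 10 genes with the largest enrichment (left of the dashed line) and the 10 with the largest depletion, among genes with a symbol and at least 10 RPKM on the higher side, RIP in red and input in blue, and bars give the mean of 2 libraries. RIP and input values do not overlap in any of the 20 genes, which the choice of genes required. *C46C2.7* and *nspc-20* show the widest gaps between RIP libraries.

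The mRNAs of the OMA proteins themselves were enriched. *oma-1*, the tagged gene, had 330 and 321 RPKM in RIP, against 121 and 89.5 RPKM in input, a log2 fold change of 1.64 (SE 0.31, limma adjusted p = 0.0041). *oma-2* had 979 and 1273 RPKM in RIP, against 349 and 257 RPKM in input, a log2 fold change of 1.90 (SE 0.36, limma adjusted p = 0.0047). In both genes the inputs differed from each other by less than RIP differed from input. Both calls ended without input 2, at log2 fold changes of 1.42 and 1.68, where the spread came from the RIP pair alone.

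Among 9 mRNAs known as translational targets of the OMA proteins, 4 were enriched and none was depleted, with a list median of 0.93. The background is 9.12% of genes tested enriched and 19.4% depleted. The list was chosen with earlier results of these data known. *mom-2* had 1965 and 4178 RPKM in RIP, against 316 and 229 RPKM in input, a log2 fold change of 3.41 (SE 0.46, limma adjusted p = 0.00085). *zif-1* had 213 and 451 RPKM in RIP, against 101.5 and 91.1 RPKM in input, a log2 fold change of 1.68 (SE 0.38, limma adjusted p = 0.0096). In both genes RIP 2 was well above RIP 1, and both RIP values were above both input values. Without input 2 the call of *zif-1* ended (log2 fold change 1.60, limma adjusted p = 0.0598), which left 3 enriched targets, while without RIP 1 there were 5.

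*rnf-5*, which encodes a RING finger ubiquitin ligase of the endoplasmic reticulum, had 82.4 and 132.5 RPKM in RIP, against 24.4 and 22.8 RPKM in input, a log2 fold change of 2.1. *cdc-25.3*, which encodes a phosphatase of the family that activates cyclin-dependent kinases, had 139 and 193 RPKM in RIP, against 39.2 and 45.0 RPKM in input, a log2 fold change of 1.94. *glp-1*, which encodes a Notch receptor, had 17 and 20.8 RPKM in RIP, against 9.98 and 8.92 RPKM in input. Its log2 fold change of 0.93 (limma adjusted p = 0.025) lay under 1, and it passed with median centring (1.23), with quantile normalization (1.21) and without RIP 1 (1.07).

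The other 4 known targets showed no enrichment by this measure. *nos-2* had 215 and 299 RPKM in RIP, against 344 and 238 RPKM in input, and its values in RIP and input overlapped. *meg-1*, which encodes a protein of germ granules, had 96.7 and 79.2 RPKM in RIP, against 85.7 and 62.2 RPKM in input. *spn-4*, which encodes an RNA-binding protein of early blastomeres, had 590 and 552 RPKM in RIP, against 1115 and 799 RPKM in input. *mei-1*, which encodes the catalytic subunit of the meiotic microtubule-severing enzyme katanin, had 37.2 and 32.2 RPKM in RIP, against 64.1 and 56.3 RPKM in input. The log2 fold changes of *nos-2*, *meg-1*, *spn-4* and *mei-1* were −0.18, 0.26, −0.72 and −0.78. The sign of *nos-2* turned with centring (0.13), with quantile normalization (0.15), without RIP 1 (0.06) and without input 1 (0.09). These mRNAs were present in the RIP libraries but not called above their input level.

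The CCCH zinc finger genes, which encode the maternal RNA-binding proteins that set cell fates in the early embryo, were also divided. Of 8 tested, 3 were enriched (*moe-3*, *oma-2* and *oma-1*) and *mex-1* was depleted. *moe-3*, also known as *oma-3*, had 12.2 and 11.8 RPKM in RIP, against 1.25 and 1.91 RPKM in input, a log2 fold change of 2.35 (SE 0.28, limma adjusted p = 0.00053). *mex-1* had 64.6 and 62.8 RPKM in RIP, against 162 and 138 RPKM in input, a log2 fold change of −1.22 (SE 0.27, limma adjusted p = 0.0091). Its call ended with median centring (−0.91) and without either input (−1.11 without input 1 and −1.33 without input 2). *pos-1*, *pie-1*, *mex-5* and *mex-6*, whose proteins are segregated between germ line and somatic blastomeres, had log2 fold changes of −0.10, −0.01, −0.22 and 0.13. Signs of this size turned with other settings. *pos-1* reached 1424 and 1199 RPKM in RIP, against 1624 and 1208 RPKM in input, a high level in both kinds of library with no call. Without input 2 only *moe-3* of the 3 enriched genes kept its call.

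Of the 4 *meg* genes, whose proteins build germ granules in the embryo, none was called. *meg-2* had 30.1 and 14.8 RPKM in RIP, against 11.8 and 8.55 RPKM in input. Its log2 fold change of 1.01 missed the threshold (limma adjusted p = 0.0504), and it passed with a replicate block (limma adjusted p = 0.011), with a minimum of 5 RPKM, in a fit of all 12 libraries, with either scaling, and without RIP 2. *meg-3* and *meg-4* had log2 fold changes of 0.07 and 0.08.

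**Figure D3:**
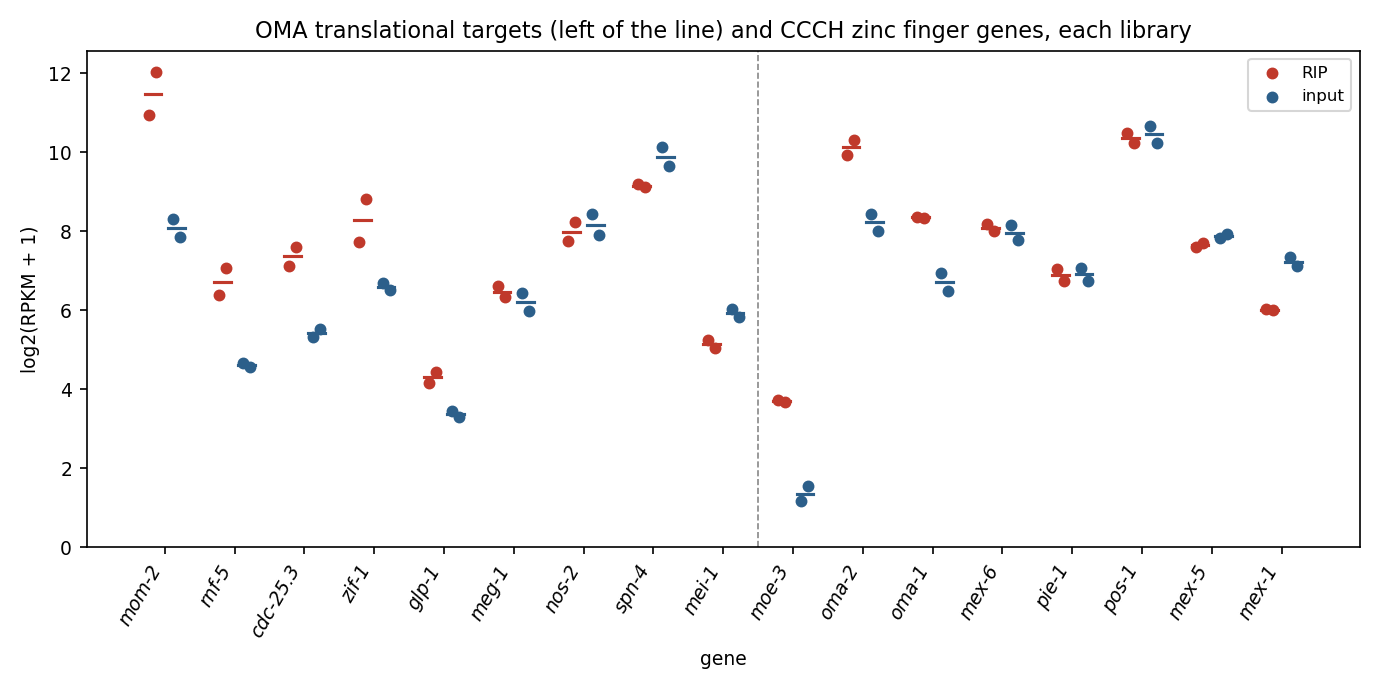
Points give log2(RPKM + 1) of each library for 9 known OMA targets (left of the dashed line) and 8 CCCH zinc finger genes, ordered by log2 fold change within each list, RIP in red and input in blue, and bars give the mean of 2 libraries. *mom-2* stands out among the targets, while *nos-2*, *spn-4* and *pos-1* are high in both kinds of library without enrichment.

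Other RNA regulators of the germ line were mixed. The PUF proteins bind 3′UTRs and repress translation. Of 10 PUF genes, 2 (20%) were enriched and 1 (10%) depleted, beside 9.12% and 19.4% of all genes tested. *puf-5*, needed for late oogenesis, had 293 and 241 RPKM in RIP, against 66.8 and 103 RPKM in input, a log2 fold change of 1.67 (SE 0.32). *puf-11* had 554 and 439 RPKM in RIP, against 248 and 181 RPKM in input, a log2 fold change of 1.21. *puf-8* had 15.9 and 12.8 RPKM in RIP, against 31.4 and 31.2 RPKM in input, a log2 fold change of −1.08. The calls of *puf-11* and *puf-8* ended without either input, at log2 fold changes of 1.44 and −1.08 without input 1 and of 0.99 and −1.09 without input 2. That of *puf-8* also ended without RIP 2 (−0.93) and with either scaling, and that of *puf-5* ended without input 1 (1.36).

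None of 14 further germ line translational regulators was enriched and 3 (21.4%) were depleted, beside 9.12% and 19.4% of all genes tested. *daz-1*, which encodes the DAZ family protein needed for oogenesis, had 23.8 and 41.9 RPKM in RIP, against 96.6 and 94.8 RPKM in input, a log2 fold change of −1.57. *gld-2*, the catalytic subunit of a cytoplasmic poly(A) polymerase, had 1.02 and 1.02 RPKM in RIP, against 4.74 and 5 RPKM in input, a log2 fold change of −1.54. *gld-1*, which encodes a STAR domain translational repressor, had 70.6 and 58.2 RPKM in RIP, against 32.3 and 55.5 RPKM in input, and its log2 fold change of 0.59 was not called.

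Among 15 Argonaute genes, 2 (13.3%) were enriched and 4 (26.7%) depleted, beside 9.12% and 19.4% of all genes tested. *wago-1*, which encodes an Argonaute of the germ line 22G-RNA pathway, had 688 and 624 RPKM in RIP, against 140.1 and 122 RPKM in input, a log2 fold change of 2.32 (SE 0.31, limma adjusted p = 0.00087). *wago-4* had a log2 fold change of 1.38, which lost its call without RIP 1 (0.92) and without input 1 (1.00). *hrde-1*, which encodes the nuclear Argonaute of heritable silencing, had 17 and 40.1 RPKM in RIP, against 107 and 99.7 RPKM in input, a log2 fold change of −1.94 (SE 0.38). *sago-2* had a log2 fold change of −1.80. The shares of this family lie near those of all genes tested, although *wago-1* and *hrde-1* had large changes in opposite directions.

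In the list of 15 deadenylation and decapping factors, 1 gene was enriched and 3 were depleted. These shares of 6.67% and 20% lie near the 9.12% and 19.4% of all genes tested. The enriched gene was *car-1*, which encodes an RNA-binding protein of P granules and P bodies. *car-1* had 1407 and 1304 RPKM in RIP, against 389.9 and 411 RPKM in input, a log2 fold change of 1.76 (SE 0.35, limma adjusted p = 0.0057), and the adjusted p was 0.0909 without input 1 and 0.0727 without input 2. *edc-3*, an activator of decapping, had 13 and 15.4 RPKM in RIP, against 46.4 and 35.9 RPKM in input, a log2 fold change of −1.46. None of the 8 constitutive P granule genes was enriched, and *deps-1* was depleted with a log2 fold change of −1.12, a call that ended with either scaling. The depleted decapping and deadenylation genes were 1 with either scaling, 6 without RIP 1, 0 without input 1 and 1 without input 2.

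Genes for protein degradation and the cell cycle were called in both directions. Of 11 APC/C core subunit genes tested, *such-1* was depleted (log2 fold change −1.09, a call that ended with either scaling) and the others were not called. Of 7 genes for APC/C activators, securin, separase and checkpoint proteins, 4 were depleted, and 2 were with median centring. *mdf-2*, which encodes the MAD2 checkpoint protein, had 4.61 and 5.30 RPKM in RIP, against 14.1 and 23.4 RPKM in input, a log2 fold change of −1.69. *bub-3*, likewise a checkpoint gene, had a log2 fold change of −1.48. *fzy-1*, the CDC20 gene mutated in the other strain, had 73.5 and 69.7 RPKM in RIP, against 87.3 and 79.8 RPKM in input,, a log2 fold change of −0.22 that was not called. Without input 1 and without input 2 the depleted genes of this list were 2 and 1.

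Cullin ubiquitin ligase genes included 2 enriched adaptors, *zif-1* and *zer-1*, and 2 depleted core subunits, *rbx-1* and *cul-3*, among 13 tested. These shares of 15.4% each lie beside 9.12% and 19.4% of all genes tested. *zer-1*, a substrate receptor of the CUL-2 ligase, had 108 and 102 RPKM in RIP, against 33.3 and 30.2 RPKM in input, a log2 fold change of 1.70 (SE 0.26, limma adjusted p = 0.0018). The calls of *rbx-1* (−1.14) and *cul-3* (−1.09) ended with either scaling. Of 14 genes for cyclins, their kinases and regulators, 1 (7.14%) was enriched, *cdc-25.3*, and 3 (21.4%) were depleted, shares near those of all genes tested. The depleted genes *cdc-25.2*, *cdk-1* and *cdc-25.1* had log2 fold changes of −1.17, −1.17 and −1.01. With median centring none of these 3 was depleted, and without either input none was.

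Meiotic genes were enriched in 4 of 23 cases and depleted in 4. *zhp-3*, a RING finger protein of crossover formation, had 43.1 and 50.9 RPKM in RIP, against 11.2 and 10.1 RPKM in input, a log2 fold change of 2.04 (SE 0.26). *him-8*, the pairing centre protein of the X chromosome, had 64.8 and 74.4 RPKM in RIP, against 14.7 and 18.1 RPKM in input, a log2 fold change of 2.02 (SE 0.27). *syp-2*, a central region protein of the synaptonemal complex, had 14.1 and 18.5 RPKM in RIP, against 56.9 and 53.8 RPKM in input, a log2 fold change of −1.72. *zim-3*, a relative of *him-8* that serves other chromosomes, had a log2 fold change of −1.14. These shares of 17.4% each lie beside 9.12% of all genes tested enriched and 19.4% depleted. The enriched count was 7 with median centring, and the depleted count was 1 with either scaling or without either input.

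Eggshell and fertilization genes, which are expressed in oocytes, were called in 2 of 8 cases, both depleted. This share of 25% lies beside 19.4% of all genes tested. *perm-2* had 53.9 and 28.8 RPKM in RIP, against 246 and 209 RPKM in input, a log2 fold change of −2.49 (SE 0.34, limma adjusted p = 0.00098). *perm-4* had 52.5 and 34.1 RPKM in RIP, against 217 and 212 RPKM in input, a log2 fold change of −2.31 (SE 0.30). Both encode parts of the permeability barrier. *cpg-2*, a chondroitin proteoglycan gene of the eggshell, had 766 and 755 RPKM in RIP, against 1196 and 772 RPKM in input, and was not called. With either scaling 2 genes of this list were enriched beside the 2 depleted.

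No replication licensing gene was enriched and 6 of 13 were depleted, *cdt-1* and *mcm-4* most, with log2 fold changes of −1.31 and −1.31. Their number was 2 with either scaling and 0 in a test against a log2 fold change of 1. *cdt-1* passed the filter through the inputs alone, so its call is no support for depletion. The call of *mcm-4* ended without either input, at −1.26 without input 1 and −1.36 without input 2. Of 9 maternal chromatin regulators none was enriched and 3 were depleted, among them *mes-6* (−1.09) and *mes-4* (−1.07), and none was with either scaling. PAR polarity genes had 2 of 8 depleted, *par-5* (−1.44) and *cdc-42* (−1.35), and both remained so with either scaling, while without input 1 neither was depleted and without input 2 *cdc-42* alone was. Of 14 centrosome genes 4 were depleted, led by *sas-5* (−1.73), against 1 with either scaling. Depleted shares were 46.2%, 33.3%, 25% and 28.6% in the licensing, chromatin, PAR and centrosome lists, beside 19.4% of all genes tested.

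Ribosomal protein genes were depleted almost throughout. Of 80 cytosolic ribosomal protein genes tested, 78 were depleted and none was enriched, with a list median of −2.67 beside −0.37 for all genes. Their summed RPKM was 8478 and 5937 in RIP 1 and RIP 2, against 48088 and 40620 in input 1 and input 2, that is 2.89% and 2.16% of all RPKM in RIP and 14.4% and 13.1% in input. The exceptions, named after their values were seen, were *rla-2*, which encodes an acidic stalk protein and had 287 and 288 RPKM in RIP, against 374 and 374 RPKM in input, and *rps-29*, which had 45.4 and 33.7 RPKM in RIP, against 27.6 and 38.9 RPKM in input. The count of 78 was the same with either scaling, 76 without input 1 and 77 without input 2. When the fold change itself was tested against 1 on the log2 scale, 66 were depleted.

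Genes for other parts of the basic machinery followed in part. Of 67 mitochondrial ribosomal protein genes, 29 were depleted and 2 were enriched (*mrpl-30* and *mrpl-36*, with log2 fold changes of 1.23 and 1.21), and the list median was −0.84. Of 42 nuclear genes for oxidative phosphorylation, 18 were depleted and none enriched, with *asg-1*, a subunit of ATP synthase, at 48.8 and 28.8 RPKM in RIP, against 179 and 184 RPKM in input. With median centring 15 and 8 of these genes were depleted. Without input 1 they were 13 and 8, and without input 2 they were 12 and 3, with no enriched mitochondrial ribosomal protein gene in either case. Without RIP 2, 7 oxidative phosphorylation genes were depleted.

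Of 33 proteasome subunit genes, 18 were depleted and *rpt-4* was enriched. *rpt-4*, an ATPase of the regulatory particle, had 525 and 920 RPKM in RIP, against 101 and 95.3 RPKM in input, a log2 fold change of 2.81 (SE 0.36, limma adjusted p = 0.00067). *pas-1* of the core particle had 36.2 and 25.9 RPKM in RIP, against 107 and 102 RPKM in input. RIP values of *rpt-4* were several times its input values, while those of *pas-1* were well below. The depleted count of this family was 7 with median centring, 14 with quantile normalization, 30 without RIP 1, 7 without RIP 2 and 5 without either input.

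Of 33 translation factor genes, 13 were depleted and *eif-2A* was enriched. *eif-2A*, an initiation factor, had 310 and 323 RPKM in RIP, against 40.4 and 56.9 RPKM in input, a log2 fold change of 2.7 (SE 0.30, limma adjusted p = 0.00037). *eef-1A.1*, which encodes elongation factor 1 alpha, had 94.8 and 73.3 RPKM in RIP, against 648 and 727 RPKM in input, a log2 fold change of −3.03 (SE 0.31). *iff-1*, a form of initiation factor 5A, had a log2 fold change of −2.30. The depleted count was 7 with either scaling and without either input, 6 without RIP 2 and 20 without RIP 1. Aminoacyl-tRNA synthetase genes had 4 of 31 depleted (12.9%, beside 19.4% of all genes tested) and none enriched, and with either scaling none was depleted.

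Nematode-specific peptide families were depleted in 21 of 24 genes tested, with a list median of −3.15. All 18 *nspc* genes were among them. Their summed RPKM with the other families of the list was 52.8 and 51.1 in RIP, against 627 and 453 in input. These genes are short and similar to each other, so the authors' counting may have moved reads between copies. The depleted count was 19 with either scaling, 17 with a pseudocount of 5 RPKM and 18 with a minimum of 5 RPKM. *nspc-14* and *nspc-3* passed the filter through the inputs alone and were untested without either input. The filter acts in the same way on any other member under 1 RPKM in both RIP libraries, and such calls are no support for depletion.

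**Figure D4:**
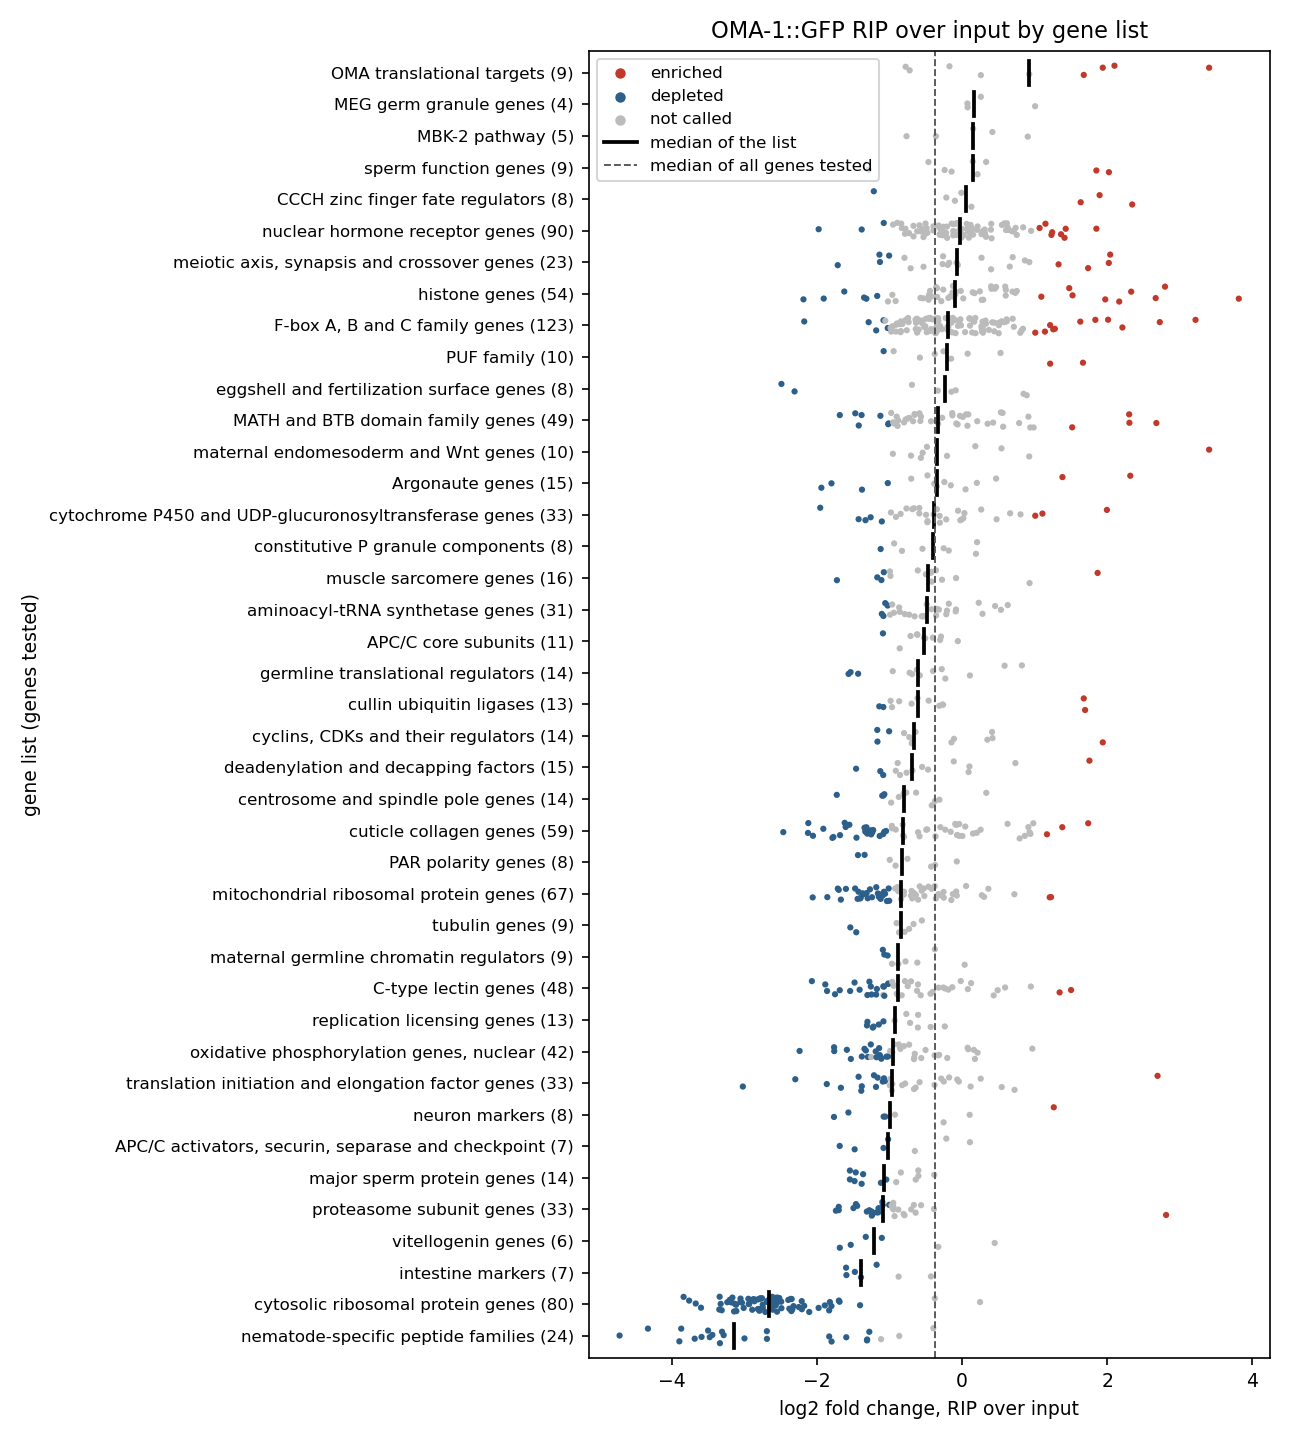
Each point is a gene, with its log2 fold change of RIP over input on the x axis, in 1 row for each of the 41 gene lists (genes tested in brackets), coloured by its call, with black bars at the list medians and a dashed line at the median of all genes tested (−0.37). The known OMA targets have the highest list median (0.93), and ribosomal protein genes and nematode-specific peptide families have the lowest medians of the 41 lists, −2.67 and −3.15. The lists were chosen with earlier results of these data known, so this order is a description.

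Large gene families had members called in both directions. Of 123 F-box genes of the A, B and C families, 11 were enriched and 5 depleted, led by *fbxb-60* with 24.3 and 34.4 RPKM in RIP, against 2.83 and 1.70 RPKM in input, a log2 fold change of 3.22 (SE 0.31). Of 49 genes with MATH or BTB domains, 4 were enriched and 7 depleted. *bath-30* had 214 and 275 RPKM in RIP, against 38.3 and 35.8 RPKM in input, a log2 fold change of 2.68, and *bath-29* and *bath-27*, also on chromosome II, had log2 fold changes of 2.31 and 2.30. Nuclear hormone receptor genes had 8 of 90 enriched and 3 depleted, with *nhr-84* at a log2 fold change of 1.85. Enriched shares of 8.94%, 8.16% and 8.89% in these families lie beside 9.12% of all genes tested, and depleted shares of 4.07%, 14.3% and 3.33% lie beside 19.4%. Without input 1 the enriched genes were 7, 3 and 4 in these families, and without input 2 they were 5, 3 and 3. F-box genes had 1 depleted with either scaling. *fbxa-79*, *math-22*, *math-3* and *nhr-74* passed the filter through the inputs alone and were untested without either input. Their calls are no support for depletion. Likewise *nhr-270* passed through RIP alone, and its call is no support for enrichment.

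Histone genes were enriched in 9 of 54 cases (16.7%) and depleted in 6 (11.1%), beside 9.12% and 19.4% of all genes tested. The highest was a gene named *his-47* (WBGene00001921), with 40.9 and 34.0 RPKM in RIP, against 1.58 and 1.86 RPKM in input, a log2 fold change of 3.82 (SE 0.27). The annotation gives the symbol *his-47* to 3 gene identifiers, and WBGene00001939 and WBGene00001931 had log2 fold changes of 2.80 and 2.33. *his-51* (WBGene00001893) had 0.913 and 0.717 RPKM in RIP, against 6.80 and 7.76 RPKM in input. Histone genes of a class are almost identical in sequence, so the values of single copies are uncertain. The enriched count was 11 and the depleted count 5 with either scaling. *his-51* passed the filter through the inputs alone, so its call is no support for depletion.

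C-type lectin genes were depleted in 19 of 48 cases and enriched in 2. Of the enriched ones, *clec-245* passed the filter through RIP alone, so its call is no support for enrichment. *clec-87* had 1875 and 1330 RPKM in RIP, against 683 and 566 RPKM in input, a log2 fold change of 1.34, a call that ended without either input. *clec-91* had 42.0 and 34.3 RPKM in RIP, against 168 and 157.5 RPKM in input, a log2 fold change of −2.07. Of 33 cytochrome P450 and UDP-glucuronosyltransferase genes, 3 were enriched, with *cyp-36A1* highest (log2 fold change 2), and 5 depleted. These shares of 9.09% and 15.2% lie near the 9.12% and 19.4% of all genes tested. Without either input 4 lectin genes were depleted, and the P450 and transferase genes had 1 enriched, with 2 depleted without input 1 and 0 without input 2.

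The annotation columns of the deposited tables assign genes to germ line expression classes, and each class held both enriched and depleted genes. Of 1332 oogenic genes tested, 11.6% were enriched and 11.5% depleted, with a median log2 fold change of −0.22. Of 615 spermatogenic genes, 9.92% were enriched and 16.1% depleted, with a median of −0.23. Of 4475 gender neutral genes, 6.61% were enriched and 24.0% depleted, with a median of −0.50. Of 3321 genes in no class, 11.4% were enriched and 17% depleted. Genes marked as germ line enriched had 9.06% enriched and 19.1% depleted, beside 9.17% and 19.6% of the others. Genes marked as soma enriched had 6.48% enriched and 24.0% depleted, beside 10% and 17.8% of the others. Oogenic genes with at least 10 RPKM in input had 13% enriched and 15.3% depleted, beside 12.2% and 28.8% of spermatogenic genes and 6.73% and 29.6% of gender neutral genes at that level. Whole animals were lysed, so fewer cells of a type and less mRNA per cell cannot be told apart in either kind of library.

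Markers of somatic tissues were present in the RIP libraries, mostly below their input level. Of 7 intestine markers tested, 5 were depleted and none enriched, with a list median of −1.40, and their summed RPKM was 247 and 132 in RIP, against 418 and 456 in input. The intestinal protease gene *cpr-1* had 36.9 and 26.2 RPKM in RIP, against 99.6 and 93.5 RPKM in input. Of 6 vitellogenin genes, which encode yolk proteins made in the intestine, 4 were depleted. *vit-2* had 182 and 113 RPKM in RIP, against 475 and 452 RPKM in input, a log2 fold change of −1.69, and its call ended without input 1 (−1.65, limma adjusted p = 0.0518). Without RIP 2 and without input 2, depleted intestine markers were 2 and 1. No intestine marker was at 0 in all 4 libraries. Vitellogenin genes are near copies of each other, and the depleted ones were 1 without either input.

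Muscle genes were not uniformly low. Of 16 tested, 4 (25%) were depleted and *act-4* (6.25%) was enriched, beside 19.4% and 9.12% of all genes tested. With either scaling 1 was depleted. The list had a median of −0.47, and its summed RPKM was 3396 and 2824 in RIP, against 1714 and 1883 in input. *act-4*, an actin gene, made up most of that sum, with 2560 and 2212 RPKM in RIP, against 621 and 682 RPKM in input, a log2 fold change of 1.87 (SE 0.39, limma adjusted p = 0.0064). Its adjusted p was 0.0961 without input 1 and 0.068 without input 2. The actin genes are nearly identical, so its value is uncertain. *unc-54*, which encodes the major body wall myosin heavy chain, had 55.8 and 85.4 RPKM in RIP, against 34.2 and 37.4 RPKM in input, a log2 fold change of 0.93 (limma adjusted p = 0.034). *pat-10*, which encodes troponin C, had 31.5 and 13 RPKM in RIP, against 56.5 and 85.9 RPKM in input. The part of muscle RNA in the result was not tested.

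Cuticle collagen genes, which the epidermis expresses, were depleted in 25 of 59 cases and enriched in 3. *col-122* had 369 and 214 RPKM in RIP, against 1239 and 1226 RPKM in input, a log2 fold change of −2.13 (SE 0.39). *col-101* had 1248 and 945 RPKM in RIP, against 295 and 358 RPKM in input, a log2 fold change of 1.74 (SE 0.36), and its adjusted p was 0.110 without input 1 and 0.0503 without input 2. The list summed to 7899 and 5412 RPKM in RIP, against 10924 and 11232 RPKM in input, and 13 of its 155 genes were at 0 in all 4 libraries. Depleted collagens were 17 with either scaling, 13 without input 1 and 10 without input 2, and enriched ones were 9 with centring and 0 without either input. Neuron markers had 4 of 8 depleted and *rab-3* enriched, with 20.0 and 20.4 RPKM in RIP, against 10.9 and 5.56 RPKM in input. Without input 2 *rab-3* lost its call (0.83), and 2 neuron markers were depleted without either input. The neuron list summed to 109 and 87.2 RPKM in RIP, against 106 and 116 RPKM in input.

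Sperm genes were low in all 4 libraries. The summed RPKM of 30 major sperm protein genes was 9.26 and 7.05 in RIP, against 38.2 and 36.7 in input, and 8 of 14 tested were depleted, with none enriched. These genes are near copies, and no depletion was called with a pseudocount of 5 RPKM or with a minimum of 5 RPKM. *msp-78* and *msp-31*, the lowest of them, passed the filter through the inputs alone and were untested without either input. The filter acts in the same way on any other member under 1 RPKM in both RIP libraries. A difference was fixed by the filter there, and these calls are no support for depletion. Of 9 sperm function genes tested, *spe-38*, a membrane protein of sperm, was enriched with 2.66 and 6.7 RPKM in RIP, against 0.265 and 0.348 RPKM in input, and *gsp-4*, a sperm phosphatase gene, with 3.88 and 6.34 RPKM in RIP, against 0.684 and 0.633 RPKM in input. The log2 fold changes were 2.02 and 1.85, and neither gene was among those tested without RIP 1 or without RIP 2. Both genes were under 1 RPKM in both inputs and passed the filter through RIP alone, so a difference was fixed by the filter and these calls are no support for enrichment. The input values rest on few reads, since 3 reads on a gene of 1 kb are worth between 0.177 and 0.357 RPKM in these libraries.

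The share of depleted genes went with the input level. It was 7.04% among genes with a mean input of 1 to 3 RPKM, 19.1% at 3 to 10, 22.0% at 10 to 30, 27.8% at 30 to 100, 36.4% at 100 to 300 and 65.0% above 300 RPKM, where 160 genes were tested. The enriched share stayed between 6.60% and 9.31% over these levels. Among 386 genes with a mean input of at most 1 RPKM, 29.8% were enriched and none was depleted, which the filter on low values brings about, because such genes were tested only where RIP was high. Depleted genes were also shorter. The median annotated exon length was 1271 bases in enriched, 1102.5 in depleted and 1403 in uncalled genes, and the median 3′UTR length was 171, 126 and 173 bases. Without ribosomal protein genes the depleted genes had medians of 1146 and 132 bases. Lengths were known for 99.1% of the genes tested and 3′UTR lengths for 94.1%. Across genes, which are not independent replicates, Pearson's r of log10 3′UTR length with the log2 fold change was 0.09. All 6 nuclear chromosomes had between 8.07% and 11% of their genes enriched.

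The same mRNAs were followed in the strains with the P240L change, each against its own input, in a limma fit of all 12 libraries. The comparisons with the 2 other strains share the *oma-1-gfp* libraries. In *oma-1-gfp* against *oma-1ts-gfp*, 454 of 11736 genes (3.87%) had a higher enrichment and 148 (1.26%) a lower one. Of the 889 genes enriched in *oma-1-gfp*, 290 (32.6%) had a higher enrichment there and 3 (0.337%) a lower one, and the median of the differences over the 889 was 1.12. The median log2 fold change was 1.63 in *oma-1-gfp*, and 0.78 in *oma-1ts-gfp* over the 786 of them that passed the filter there. These genes were selected for high values in the same *oma-1-gfp* libraries, which favours higher differences, so these counts and medians are a description. The total of 602 genes fell to between 174 and 227 without either *oma-1-gfp* input, *oma-1ts-gfp* RIP 1 or either *oma-1ts-gfp* input, with 205 and 227 for the *oma-1-gfp* inputs, 227 for that RIP library, and 191 and 174 for the *oma-1ts-gfp* inputs.

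*lpr-4*, a lipocalin-related gene, had 42.1 and 60.6 RPKM in *oma-1-gfp* RIP, against 2.59 and 1.82 RPKM in its input, whereas in *oma-1ts-gfp* it was listed at 0 in both RIP libraries, against 0.0646 and 0.121 RPKM in input. The difference of enrichment was 4.15 (SE 0.45, limma adjusted p = 0.00071), on a scale where the *oma-1ts-gfp* values lie near the pseudocount. *C18D11.3* had 128 and 91.2 RPKM in *oma-1-gfp* RIP, against 59.5 and 59.9 RPKM in its input, and 2.73 and 3.75 RPKM in *oma-1ts-gfp* RIP, against 45.2 and 40.1 RPKM in its input. The difference was 4.22 (SE 0.30, limma adjusted p = 0.00013), with log2 fold changes of 0.85 in *oma-1-gfp* and −3.37 in *oma-1ts-gfp*. *C07A12.2* differed by 4.07, and 46.9% of its exon length overlaps another gene.

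Downward, *W02D9.7* had 13.2 and 11.6 RPKM in *oma-1-gfp* RIP, against 163 and 109 RPKM in its input, and 132 and 123 RPKM in *oma-1ts-gfp* RIP, against 122 and 104.5 RPKM in its input. The difference was −3.51 (SE 0.53, limma adjusted p = 0.0039). *ZC373.2* and *F55B11.5* differed by −3 and −2.83 and were depleted in *oma-1-gfp*. Values of *W02D9.7* in RIP were thus far below input in *oma-1-gfp* and near it in *oma-1ts-gfp*.

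Of the known targets, *rnf-5* had a higher enrichment in *oma-1-gfp* than in *oma-1ts-gfp*, with log2 fold changes of 2.1 and 0.23 in these strains and a difference of 1.87 (SE 0.35, limma adjusted p = 0.011). Its call ended without *oma-1-gfp* input 2, *oma-1ts-gfp* RIP 1 or *oma-1ts-gfp* input 1, at differences of 1.82, 1.63 and 1.77. *mom-2* had log2 fold changes of 3.41 and 1.31, and its difference of 2.1 was not called (limma adjusted p = 0.078). *zif-1* had log2 fold changes of 1.68 and 0.39 (difference 1.28, limma adjusted p = 0.18). Differences were also not called for *oma-1* (0.69), *oma-2* (0.66), *meg-1* (−1.06) and *spn-4* (−1.08). *moe-3* had log2 fold changes of 2.35 and 0.05, with a called difference of 2.29 (SE 0.36, limma adjusted p = 0.0044). The *oma-1* mRNA itself was lower in the *oma-1ts-gfp* libraries, with 137 and 162 RPKM in RIP and 77.8 and 75.8 RPKM in input, and whether this bears on the differences was not tested.

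In *oma-1-gfp* against *fzy-1;oma-1ts-gfp*, 9 of 11736 genes (0.0767%) had a higher enrichment and 1 (0.00852%) a lower one, and 479 had an unadjusted p under 0.05. None of these 10 was among the 9743 genes tested in *oma-1-gfp* alone. They passed the filter only with the help of other strains, which favours a difference, so their calls are no support for one. *cylc-1* was named by the rule and had no RPKM in either *oma-1-gfp* RIP library, against 0.377 and 0.149 RPKM in its input, and 0.415 and 0.416 RPKM in *fzy-1;oma-1ts-gfp* RIP, against 15.8 and 10.9 RPKM in its input. Its difference of 2.99 (SE 0.43, limma adjusted p = 0.033) goes with an input level that was higher in the double mutant, whose RIP 2 value lies under the floor of 3 reads on 1 kb (0.483 RPKM). The call ended with a replicate block (limma adjusted p = 0.059), with quantile normalization (0.0567), with a minimum of 5 RPKM (0.082), with a pseudocount of 0.1 RPKM, and without any 1 of 9 single libraries, at adjusted p between 0.0657 and 0.396. The 889 genes had a median log2 fold change of 1.63 in *oma-1-gfp*, the 875 of them that passed the filter in *fzy-1;oma-1ts-gfp* had one of 1.68 there, and the median of the differences over the 889 was 0.03. *mom-2* had log2 fold changes of 3.41 and 3.75, *zif-1* of 1.68 and 1.83, and *C46C2.7* of 5.30 and 5.06 in these strains. A difference that misses the threshold does not show that the strains are alike, and the count of 10 ranged between 0 and 34 when single libraries were left out.

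**Figure D5:**
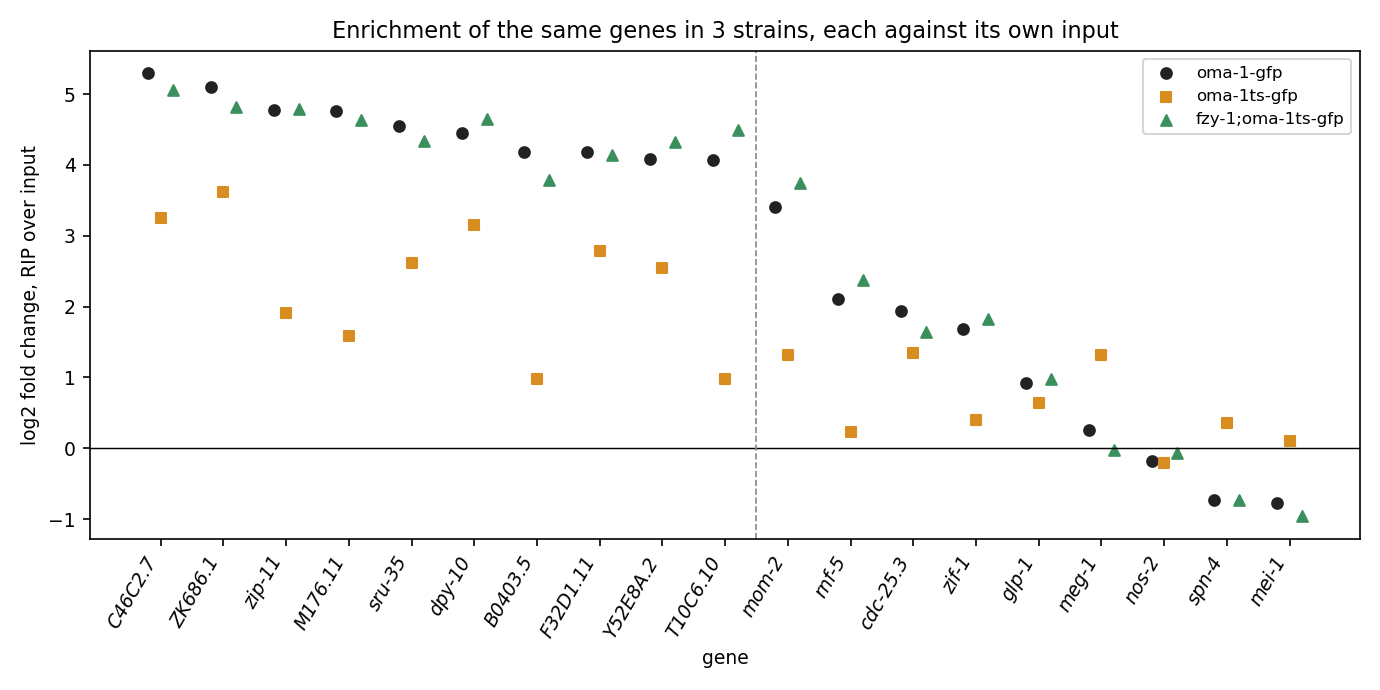
The log2 fold change of RIP over input is plotted for the 10 most enriched genes of *oma-1-gfp* (left of the dashed line) and 9 known OMA targets, in *oma-1-gfp* (circles), *oma-1ts-gfp* (squares) and *fzy-1;oma-1ts-gfp* (triangles), each from its own RIP and input libraries. For all 10 genes on the left the squares lie below the circles, while circles and triangles lie within 0.43 of each other.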

How the data were processed

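The authors aligned reads with HISAT2 2.0.5, counted them with HTSeq 0.6.0 (versions per the submitters' processing notes, which also name CASAVA 1.4), and deposited RPKM values per gene on a scale 1000 times larger, which were divided by 1000 here. Genes missing from a file were set to 0. Of low values, 51.5% to 54.8% fell on whole reads (tolerance 0.1 reads), so reads were not recovered. Genome build, strand setting and read totals are not given in the sources used here. Counting error sets a floor of 3 reads, worth 0.177 to 0.357 RPKM on 1 kb in the 4 *oma-1-gfp* libraries and up to 0.483 RPKM in the other strains. Germ line expression classes are annotation columns of a table the authors deposited. A further 40 columns of per-sample values and the authors' columns of fold changes and p-values were not used.

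Genes reaching 1 RPKM in 2 or more libraries of a fit were tested on log2(RPKM + 1) with limma 3.58.1 in R 4.3.3 (intensity trend, Benjamini-Hochberg adjustment), a scale that understates the change of low genes. Each strain had a fit of its own 4 libraries, and differences of enrichment were interaction terms in a fit of all 12. Genes were called when |log2(fold change)| exceeded 1 with adjusted p below 0.05. The study's own test needs counts, which the RPKM files used here do not hold, so limma took its place. Scripts were tested on simulated data. Of 18887 genes in the 12 libraries, 18553 were in the WBcel235 annotation and 18012 had a symbol.

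Named genes are the 10 with the largest change in each direction past both thresholds, with a symbol, without overlap and with at least 10 RPKM in each library of the higher side; all members of the OMA target, CCCH and *meg* lists; in every other list the 2 tested members with the highest and the 2 with the lowest log2 fold change; and the 3 largest strain differences in each direction. Further members given with values were chosen after these were seen. The members and the 41 lists were chosen with earlier results of these data known. Alternatives were a replicate block, pseudocounts of 0.1 and 5 RPKM, no filter or a minimum of 5 RPKM, median centring, quantile normalization, no trend, a fit of all 12 libraries, a test against a log2 fold change of 1, and each library left out. Tables were made with Python, pandas, numpy and matplotlib. Embryo libraries and sequences were not used here.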

Additional observations from a re-analysis of the deposited data

Results flagged for a closer look

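The enrichment of 20 named genes differed between strains by a test of the difference itself (limma, 12 libraries). All values are log2 enrichment in *oma-1-gfp* minus the other strain. The causes were not tested.

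Against *oma-1ts-gfp*, 8 of the 10 most enriched genes stood higher in *oma-1-gfp*, although they were chosen for high values in the same *oma-1-gfp* libraries, which favours a higher difference. The differences were 3.20 for *B0403.5*, 3.18 for *M176.11*, 3.09 for *T10C6.10*, 2.87 for *zip-11* and 1.93 for *sru-35*. They were 2.04 for *C46C2.7*, 1.54 for *Y52E8A.2* and 1.48 for *ZK686.1*, whose calls ended under quantile normalization, where they were 1.32, 1.02 and 0.41, and without any of several single libraries. Among genes named for the difference, *C18D11.3* (4.22), *lpr-4* (4.15) and *C07A12.2* (4.07) stood higher, and *W02D9.7* (−3.51), *ZC373.2* (−3.002) and *F55B11.5* (−2.83) lower. Of known targets and CCCH genes, *moe-3* (2.29) and *rnf-5* (1.87) stood higher and *mex-1* (−1.11) lower. The call of *mex-1* ended without any 1 *oma-1-gfp* or *oma-1ts-gfp* library (limma adjusted p between 0.0583 and 0.192), without a filter and without the trend, and that of *rnf-5* without *oma-1-gfp* input 2, *oma-1ts-gfp* RIP 1 or *oma-1ts-gfp* input 1 (limma adjusted p between 0.0528 and 0.067). Of the most depleted genes, *ZK813.3* (−2.22) and *ule-5* (−1.20) stood lower, likewise chosen for their *oma-1-gfp* values, and the call of *ule-5* ended without either input of either strain or without *oma-1ts-gfp* RIP 1 (limma adjusted p between 0.0648 and 0.111). Against *fzy-1;oma-1ts-gfp*, *cylc-1* stood higher (2.99), with values near 0 in *oma-1-gfp*. It passed the filter through other strains alone, so its call is no support for a difference. The call also ended with a replicate block, quantile normalization, a pseudocount of 0.1 RPKM, a minimum of 5 RPKM and without any 1 of 9 single libraries.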

How the results depend on the processing

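Counts of enriched and depleted genes (889 and 1888) were 582 and 873 with a pseudocount of 5 RPKM, 591 and 974 without a filter, 1373 and 959 with median centring, 1270 and 1065 with quantile normalization, and 251 and 209 in a test against a log2 fold change of 1. With 1 library left out they lay between 565 and 992 and between 720 and 2323. Under all 15 settings 225 genes stayed enriched and 179 depleted. The 602 differences from *oma-1ts-gfp* were 380 without a filter and 174 to 698 with 1 library left out. The 10 differences from *fzy-1;oma-1ts-gfp* were 2 with a replicate block, 0 with a pseudocount of 0.1 RPKM, 36 with 5 RPKM, 29 without a filter, 2 with a minimum of 5 RPKM, and 0 to 34 with 1 library left out.

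With the replicate block, 909 genes were enriched and 1924 depleted. Deviations of same-numbered *oma-1-gfp* libraries correlated with r = 0.08, beside 0.04 in *oma-1ts-gfp* and 0.29 in *fzy-1;oma-1ts-gfp*. Not every pair passed 0.1 and each strain has 2 numbers, so the numbers were not taken to pair the samples. Among 140 named genes no called gene changed direction, and 43 kept their call under every setting. Genes near 0 changed sign with median centring and quantile normalization: *nos-2* (0.13 and 0.15), *mex-5* (0.087 and 0.032) and *pie-1* (0.29 and 0.12), and *pos-1* with centring (0.21). With 1 library left out, *nos-2* lay between −0.44 and 0.090, *pos-1* between −0.31 and 0.11, *pie-1* between −0.18 and 0.15, *mex-6* between −0.057 and 0.31, *meg-3* between −0.091 and 0.24 and *meg-4* between −0.41 and 0.56. The causes were not tested. Depth is lowest in RIP 1, and values under the floor of 3 reads cannot be told from 0.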

Other observations

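Some groups of genes with a shared symbol were chosen after the values were seen, out of all those with at least 6 genes tested. They lie beside 9.12% enriched and 19.4% depleted over all genes tested. All 6 *pud* genes were depleted, with a median log2 fold change of −2.11. All 7 *pbs* genes (proteasome core beta subunits), which are part of the proteasome list, were depleted, with a median of −1.16. Their values ran from −1.50 to −1.01, close to the threshold, and the depleted count of the whole proteasome list fell from 18 to 7 with median centring. Of 8 *lbp* genes, which encode lipid-binding proteins, 6 were depleted, with a median of −1.70. Innexin genes (*inx*), whose proteins form gap junctions, had 4 of 16 enriched (25%), 3 depleted (18.8%) and log2 fold changes from −1.23 to 2.55. Of 21 *fbxc* genes, which are part of the F-box list, 5 (23.8%) were enriched and none depleted. Of 51 *fbxa* genes, 2 were enriched and 5 depleted, and of 51 *fbxb* genes 4 were enriched and none depleted. These counts were not recomputed under other settings. Of 111 pseudogenes tested, 6.31% were enriched and 13.5% depleted.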
